A study of Rattus norvegicus with 18 samples.

Results

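Mitochondrial DNA codes for 13 proteins, all of them subunits of the respiratory chain or of ATP synthase. Of these, 6 lie outside complex I, and their RNA was measured here in rat gastrocnemius muscle. They are COX1, COX2 and COX3 of cytochrome c oxidase (complex IV), ATP6 and ATP8 of ATP synthase (complex V) and CYTB, the cytochrome b of complex III. The deposited table holds 32883 Ensembl gene identifiers without symbols, so the 6 genes were found by position. Of its 37 mitochondrial rows, 15 are longer than 100 bases, and these were named by the known gene order of rat mitochondrial DNA. The naming used position alone. RNA was sequenced from individually housed male Brown Norway rats (BN/SsNOlaHSD) in 3 groups of 6. Young rats were fed ad libitum (AL) to 6 months of age, aged rats were fed AL to 28 months, and aged CR rats were 28 months old and had been restricted to 55% of the AL intake from 2 months. There was no young CR group, so the effect of diet was measured only in aged muscle.

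All 13 proteins sit in the inner mitochondrial membrane. CYTB passes electrons from ubiquinol towards cytochrome c, COX1 holds the site where oxygen is reduced, COX2 takes up the electrons from cytochrome c, and COX3 completes the membrane core of complex IV. ATP6 forms part of the proton path of ATP synthase, and ATP8 is a small membrane subunit beside it. The genes are transcribed together as long precursor RNAs, which are cut largely at the transfer RNAs between them. Skeletal muscle is rich in mitochondria, and these RNAs are widely used as a measure of their transcription. In whole muscle, fewer mitochondrial genomes, fewer mitochondria-rich fibres and less RNA per genome cannot be told apart.

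The positions of the genes bear on how their fragments could be counted. In Rnor_6.0, COX1 (ENSRNOG00000034234) runs from 5323 to 6867 of the mitochondrial chromosome and COX2 (ENSRNOG00000030371) from 7006 to 7689. ATP8 (ENSRNOG00000033299) spans 7758 to 7961, ATP6 (ENSRNOG00000031979) 7919 to 8599 and COX3 (ENSRNOG00000030700) 8599 to 9382. CYTB (ENSRNOG00000031766) lies apart from the others, at 14136 to 15278. All 6 lie on the plus strand. Lengths of 5 of the 6 are whole multiples of 3, and that of COX3, 784 bases, leaves 1 base over. ATP8, with 204 bases, shares its last 43 with ATP6, and ATP6 shares 1 base with COX3. No transfer RNA therefore lies between ATP8 and ATP6, or between ATP6 and COX3. The counting command ignored strand and kept the default treatment of fragments that touch 2 genes, which are not assigned to either. Fragments over the shared bases are thus missing from the levels of ATP8 and ATP6 in every library. Fragments that align to more than 1 place are also left out by default. COX1 overlaps a short row on the opposite strand by 3 bases.

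Total counts ranged from 17335401 to 27432767 per library. Of the 32883 genes, 14646 passed the filter on low counts, and all 6 members were among them. For 3 libraries of the aged CR group the column name did not match a single rat, and these are called by their library numbers, 8826, 8827 and 8828. On the first principal component of log2 CPM over the genes tested, rat 8 (aged, AL) lay at 108.9 and library 8828 at 75.5, and no other library was above 8.25. Mitochondrial ribosomal RNA, the 12S and 16S rows, took from 0.341% of counts (rat 3, young) to 10.3% (rat 14, aged CR). It was above 2.5% in 5 libraries, namely young rats 1 and 2, rat 14 and libraries 8826 and 8827. Ribosomal RNA had been depleted before sequencing. The library numbers run in a separate block for each group, so that handling by block and group cannot be told apart.

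The 6 mRNAs together took a median of 3.04% of all counts in young rats fed AL (range 2.10 to 4.41%). Aged rats fed AL had a median of 2.77% (range 1.90 to 5.24%) and aged CR rats 2.00% (range 1.41 to 2.52%). The ranges of all 3 groups overlapped, and the aged CR group reached the lowest values. Within the counts on the 13 coding genes, the 6 members made up from 84.9 to 90.5% of a library, so that the 7 complex I genes together held the small remainder.

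Per kilobase of gene, COX1 had the highest level of the 13 coding genes, with a mean of 10634 CPM per kilobase over the 18 libraries. CPM are counts relative to the library total after TMM scaling, on the usual per-megacount scale. COX2 followed with 5953, COX3 with 5008, ATP6 with 2518 and CYTB with 1394 CPM per kilobase. ATP8 stood far below, at 222 CPM per kilobase, and ranked 12 of the 13 coding genes. Its level was divided by all 204 bases, although fragments that also touched ATP6, with which it shares 43 bases, were not assigned. How much of its low rank comes from the counting was not tested. Fragments that align to more than 1 place were left out for every gene. ND4L and ND4, which overlap by 7 bases, stood at 869 and 37.9 CPM per kilobase. The order of the genes is thus one of assigned fragments, and whether it follows mRNA abundance was not tested. The order was nearly the same in every library. COX1 was above COX2, COX3 above ATP6, ATP6 above CYTB and CYTB above ATP8 in 18 of 18 libraries, and COX2 was above COX3 in 17 of 18. COX2 and COX3 were the closest neighbours, with a COX2 to COX3 ratio per kilobase between 0.961 and 1.42. CYTB and ATP8 were the farthest apart, with a ratio from 4.93 to 8.57, and their ranges were apart in all 3 groups. COX1 and COX2 had ranges apart in young rats only, and the ranges of the other neighbours overlapped in each group. The order of these closer neighbours was thus seen within a rat, and did not exceed the spread between rats.

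**Figure D1:**
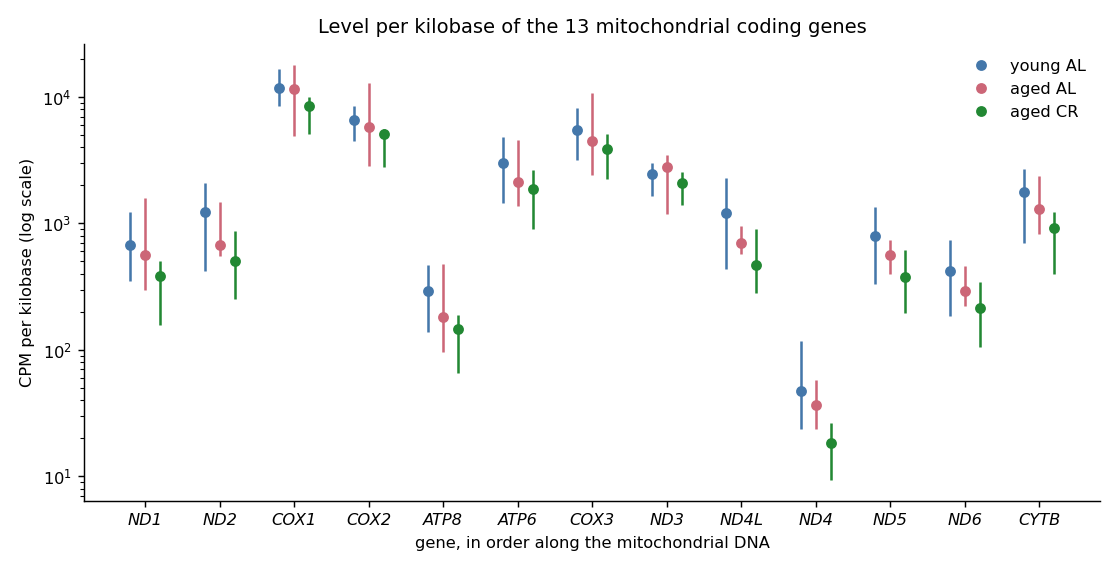
Level per kilobase of the 13 mitochondrial coding genes (TMM-scaled CPM per kilobase, log axis) in gene order along the mitochondrial DNA. Points are group medians and lines run from the lowest to the highest of 6 libraries. COX1, COX2 and COX3 stand highest, and ATP8 and ND4 lowest, in all 3 groups. Fragments that touched both ATP8 and ATP6 were not assigned to either gene.

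The 6 genes rose and fell together from rat to rat. Among the 15 pairs of members, Pearson's r of log2 CPM over the 18 libraries lay between 0.85 and 0.98, and after removal of the group means between 0.81 and 0.98. These are descriptions, since the genes share libraries and scaling. Several of the extremes were held by the same rat for every gene. Among young rats, rat 2 was the lowest for 6 of 6 members. Among aged rats fed AL, rat 11 was the highest and rat 8 the lowest for 6 of 6. Rat 8 had the largest TMM factor of the 18 libraries, 1.44, which lowers its CPM. As a percent of all counts, CYTB was lower in rat 12 (0.119%) than in rat 8 (0.136%). In the aged CR group library 8828 was the lowest for 6 of 6. The highest rat changed with the gene in the other groups, being rat 4 for 4 members and rat 3 for 2 among young rats, and library 8827 for 4 and rat 15 for 2 in the aged CR group. ATP8 had the widest range of the members, 7.34-fold between library 8828 and rat 11, and COX1 the narrowest, 3.69-fold between rat 8 and rat 11.

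**Figure D2:**
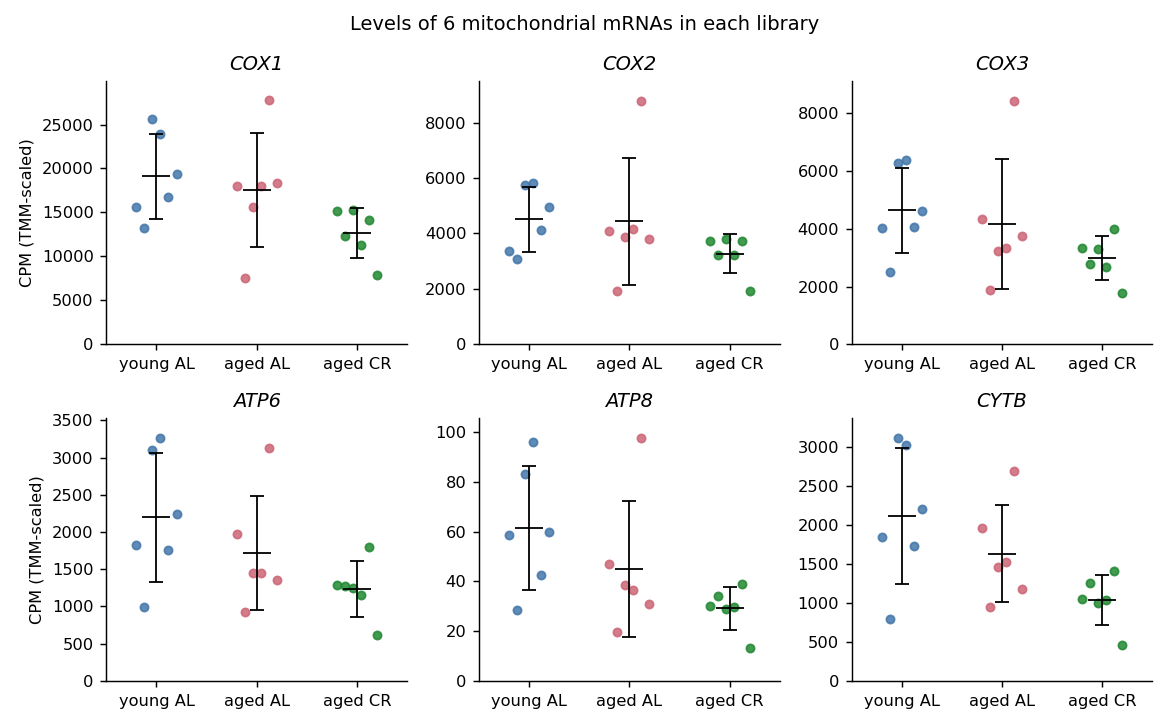
Levels of the 6 mRNAs in each library (TMM-scaled CPM, linear axes from 0). Each point is 1 library, and black marks give the mean with its SD (n = 6 in each group). In every panel 1 aged rat fed AL (rat 11) lies above the rest of its group and 1 aged CR library (8828) below.

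Cytochrome c oxidase is represented by the members with the highest levels. COX1 had 13216 CPM in the lowest, 18067 in the median and 25663 in the highest young rat fed AL. Aged rats fed AL had 7530.3, 17971 and 27782 CPM, and aged CR rats 7871, 13198 and 15327 CPM. Medians of the groups fed AL were close to each other, and all 6 aged CR rats lay below both of these medians. COX2 had 3079.9, 4534 and 5805 CPM in young rats, 1939, 3978 and 8791 CPM in aged rats fed AL, and 1926, 3459.9 and 3799 CPM in aged CR rats. COX3 had 2489, 4324 and 6373 CPM in young rats, 1876, 3546 and 8439 CPM in aged rats fed AL, and 1775, 3036 and 4008 CPM in aged CR rats. For COX2 and COX3 too the groups overlapped, with the highest value of all in rat 11 and the lowest in library 8828.

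CYTB, the sole mitochondrial contribution to complex III, had 797 CPM in the lowest young rat, a median of 2021 and 3107 in the highest. Aged rats fed AL had 950.3, 1490.0 and 2693 CPM, and aged CR rats 459, 1044 and 1410.3 CPM. The aged CR rats overlapped the young group only through rat 2, since the other 5 young rats had at least 1726 CPM.

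The subunits of ATP synthase had the same order of group medians as CYTB and the oxidase subunits. ATP6 had 995, 2031 and 3267 CPM in young rats, 932, 1447 and 3125 CPM in aged rats fed AL, and 619, 1266 and 1794 CPM in aged CR rats. ATP8 had 28.4, 59.3 and 96.1 CPM in young rats, 19.8, 37.4 and 97.4 CPM in aged rats fed AL, and 13.3, 29.8 and 38.8 CPM in aged CR rats. Both were lower in 5 of 6 aged rats fed AL and in 6 of 6 aged CR rats than the median of the young group. ATP8 was the member with the fewest counts, from 406 in library 8828 to 2343 in rat 11, and the counts of the other members were at least 14035 in every library.

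The first comparison asked whether these RNAs differ with age under free feeding. In edgeR's quasi-likelihood test of aged against young rats on AL, 0 of the 6 members were called, against 3.39% of all genes tested. A call required a 1.5-fold difference and a Benjamini-Hochberg adjusted p no higher than 0.05. No member had an unadjusted p under 0.05, where 22.3% of all genes did, and DESeq2 called none either. The groups overlapped for every member, and 1.11% of all genes were lower in every aged rat than in every young rat. The log2 fold changes of the members were all below 0, as were those of 49.0% of all genes, with a median of -0.26 for the members and 0.01 for all genes. ATP8 had the largest difference, -0.45 (standard error 0.34, adjusted p = 0.459, edgeR), and CYTB and ATP6 followed with -0.38 (standard error 0.31, adjusted p = 0.506) and -0.36 (standard error 0.31, adjusted p = 0.523). The values of ATP8 and ATP6 compare assigned fragments and cannot be read as those of separate mRNAs. Differences of the oxidase subunits were nearer to 0. COX3 had -0.15 (standard error 0.30, adjusted p = 0.810), COX1 -0.12 (standard error 0.27, adjusted p = 0.827) and COX2 -0.02 (standard error 0.28, adjusted p = 0.973). The 95% interval of the COX2 difference ran from -0.61 to 0.57, so differences within it, in either direction, were not excluded. It does not give the smallest difference that the test would call. Rat 11 and rat 8 pulled in opposite directions. Without rat 11 the differences were -0.83 for ATP8, -0.62 for ATP6, -0.58 for CYTB, -0.49 for COX3, -0.34 for COX2 and -0.30 for COX1. Without rat 8 they were -0.29 for ATP8, -0.23 for ATP6, -0.26 for CYTB, -0.0018 for COX3, 0.13 for COX2 and 0.0344 for COX1.

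The second comparison set aged CR rats against young rats fed AL, and differs in both age and diet. With the same fit, again none of the 6 members was called, where 1.98% of all genes were called. The differences were larger than between the groups fed AL. Levels in aged CR rats were below those in young rats for all 6 members, with a median log2 fold change of -0.74 against 0.00 over all genes tested, and 5 of the 6 had an unadjusted p under 0.05. An unadjusted p under 0.05 was found for 19.3% of all genes tested, and 49.3% had a log2 fold change below 0. Since the members rise and fall together, their counts in this and the other comparisons are not 6 separate observations. The groups overlapped for each of the 6, where 1.61% of all genes were lower in every aged CR rat than in every young rat.

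ATP8 and CYTB had the largest differences among the members in this comparison. Fragments that touched both ATP8 and ATP6 were not assigned to either gene. Whether ATP8 mRNA differed more than ATP6 mRNA thus cannot be read from these values, here or in the other comparisons. The same holds for their shares. ATP8 in aged CR rats was at 47.3% of its level in young rats (log2 fold change -1.08, standard error 0.34, adjusted p = 0.0967, edgeR). CYTB was at 48.9% (log2 fold change -1.03, standard error 0.32, adjusted p = 0.0858) and ATP6 at 56.1% (log2 fold change -0.83, standard error 0.31, adjusted p = 0.150). The oxidase subunits had smaller differences. COX3 was at 64.2% (log2 fold change -0.64, standard error 0.30, adjusted p = 0.259), COX1 at 66.4% (log2 fold change -0.59, standard error 0.27, adjusted p = 0.232) and COX2 at 72.3% (log2 fold change -0.47, standard error 0.28, adjusted p = 0.377). The 95% interval ran from -1.80 to -0.36 for ATP8 and from -1.70 to -0.37 for CYTB.

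Whether a member was called here depended on the tool and on single libraries. DESeq2's Wald test, the tool of the study, called ATP8 (adjusted p = 0.0329) and CYTB (adjusted p = 0.0213) in a fit of all libraries, and ATP8, CYTB and ATP6 in a fit of the 12 libraries compared. In edgeR, CYTB was called when young rat 2 was left out (log2 fold change -1.20, standard error 0.29, adjusted p = 0.0267), and ATP8 when rat 8, of neither group, was left out (adjusted p = 0.04995). Without rat 8 and library 8828 together, none was called, with an adjusted p of 0.0835 for CYTB and 0.0860 for ATP8. Among the alternatives run, COX1 also passed the adjusted p of 0.05, but was not called because its difference there was under 1.5-fold. COX2 and COX3 did not pass it in any alternative. The calls of ATP8 rest on the fragments assigned to its row, and the part of the counting in them was not tested.

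Rat 2 was the lowest young rat and overlapped the aged CR group for every member. It had 797 CPM of CYTB where the other young rats had 1726 to 3107, and 28.4 CPM of ATP8 where they had 42.6 to 96.1. With rat 2 set aside, every aged CR rat lay below every young rat for 4 of the 6 members, namely COX1, COX3, ATP8 and CYTB. For COX2 and ATP6 other young rats overlapped too, with 3369 CPM of COX2 in rat 1 and 1764 CPM of ATP6 in rat 5, where the highest aged CR rats had 3799 and 1794 CPM. This separation was found for 3.3% of all genes tested, whichever young rat was their lowest. That share is not a like-for-like measure, since leaving out the lowest young rat favours separation. Rat 2 was set aside after its values had been seen. It was also 1 of the 2 young rats with over 2.5% of counts on mitochondrial rRNA, and the part of that in its low mRNA levels was not tested.

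The third comparison set the aged groups against each other, at the same age under different diets. None of the 6 members was called, against 1.38% of all genes tested, none had an unadjusted p under 0.05, against 15.3%, and DESeq2 called none. The groups overlapped for every member, and 0.908% of all genes were lower in every aged CR rat. All 6 had lower fitted levels in aged CR rats, with log2 fold changes between -0.65 and -0.45 and a median of -0.48, against -0.02 over all genes tested, of which 53.1% were below 0. CYTB had -0.65 (standard error 0.32, adjusted p = 0.334, edgeR), ATP8 -0.63 (standard error 0.34, adjusted p = 0.411) and COX3 -0.48 (standard error 0.30, adjusted p = 0.487). ATP6 had -0.48 (standard error 0.31, adjusted p = 0.503), COX1 -0.47 (standard error 0.27, adjusted p = 0.432) and COX2 -0.45 (standard error 0.28, adjusted p = 0.490). The 95% interval of COX1, the most precisely measured, ran from -1.02 to 0.09. Without rat 11 the differences were -0.13 for COX2, -0.15 for COX3, -0.22 for ATP6, -0.24 for ATP8, -0.29 for COX1 and -0.45 for CYTB. Each of these was nearer to 0 than with rat 11 included. The 3 comparisons share groups with each other, so their values are not independent.

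The other 7 coding genes of mitochondrial DNA, all of complex I, were compared with the members in the same fit. Between aged CR and young rats, 3 of the 7 were called lower, against 1.22% of all genes tested. These were ND4 with a log2 fold change of -1.65 (adjusted p = 0.00997), ND4L with -1.44 (adjusted p = 0.0203) and ND2 with -1.33 (adjusted p = 0.0458). ND4 rests on few counts for its 1378 bases, from 394 in library 8828 to 2721 in rat 3. ND4L, with 297 bases, had 2531 to 13143. The median of the 7 was -1.12, against -0.74 for the 6 members. ND3 had the smallest difference of all 13 genes, -0.21 (adjusted p = 0.650). Between the groups fed AL and between the aged groups, 0 of the 7 were called in edgeR, with 2 of 7 at an unadjusted p under 0.05 in each case. Called lower were 1.52% and 0.546% of all genes in these comparisons. With all libraries, DESeq2 called ND4L lower between the groups fed AL (adjusted p = 0.0469) and 0 of the 7 between the aged groups. The medians of the 7 were -0.53 and -0.58 against -0.26 and -0.48 for the members. Whether the complex I genes and the members differ in their change was not tested.

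**Figure D3:**
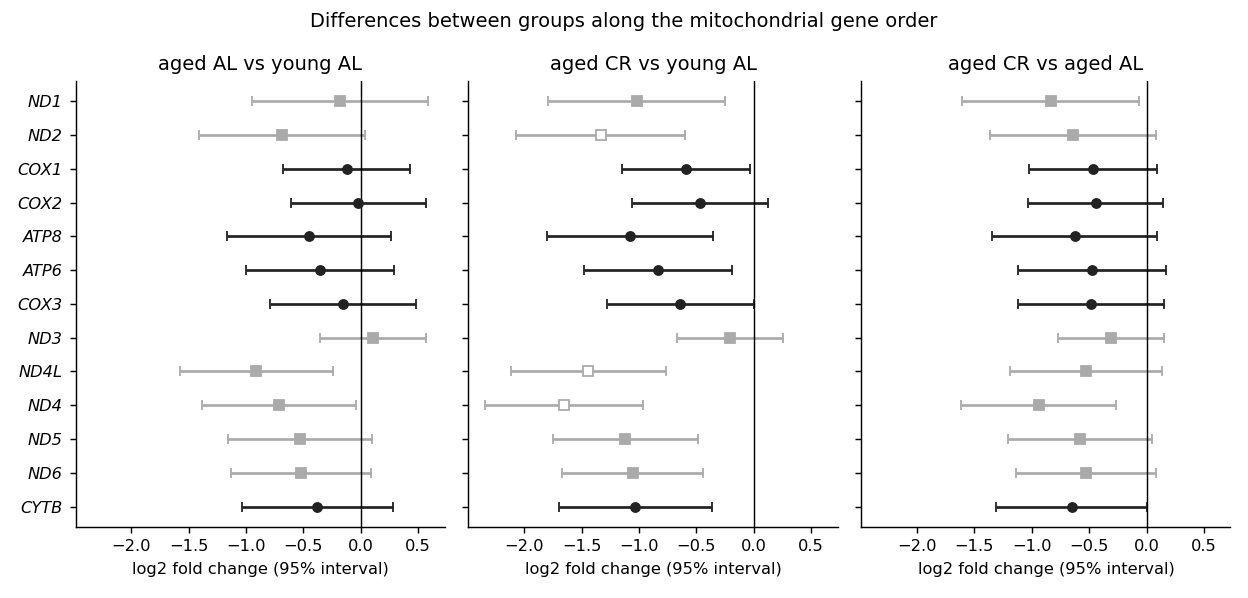
Log2 fold changes of the 13 mitochondrial coding genes in the 3 comparisons, with 95% intervals from edgeR's quasi-likelihood fit. Black circles are the 6 members, grey squares the complex I genes, and open symbols passed the call (ND2, ND4L and ND4, aged CR against young AL only). The median of the members is -0.26 between the groups fed AL, -0.74 between aged CR and young rats and -0.48 between the aged groups.

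Shares within mitochondrial mRNA do not depend on how libraries are scaled, and they show whether the members moved in proportion. COX1 took the largest part of the counts on the 13 coding genes, with means of 51.2 ± 3.39%, 52.6 ± 3.70% and 53.4 ± 2.95% (SD, n = 6 each) for young AL, aged AL and aged CR. COX3 took 12.2 ± 0.727%, 12.1 ± 1.52% and 12.5 ± 0.745% (SD, n = 6 each) in the same order. The group means of both genes lay within 1 SD of each other. COX2 took 12.1 ± 1.07% in young rats, 12.96 ± 1.30% in aged rats fed AL and 13.7 ± 0.620% in aged CR rats (SD, n = 6 each).

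The other members took smaller shares. CYTB took 5.41 ± 0.984% in young rats, 4.99 ± 0.835% in aged rats fed AL and 4.29 ± 0.810% in aged CR rats (SD, n = 6 each). ATP6 took 5.66 ± 0.739%, 5.15 ± 0.686% and 5.11 ± 0.681%, and ATP8 0.159 ± 0.0280%, 0.129 ± 0.0248% and 0.121 ± 0.0204% (SD, n = 6 each). Relative to the share itself, counting error was widest for ATP8 in library 8828, at 0.0944% with a Wilson 95% interval of 0.0856 to 0.104%. The interval covers counting error only.

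None of the 18 tests of a member's share passed an adjusted p of 0.05. Adjustment was over 39 tests, for 13 genes in 3 comparisons, and 6 rats against 6 allow no exact p below 0.00216. Between aged CR and young rats, the COX2 share was higher by 1.65 percentage points (two-sided exact permutation p = 0.00649, adjusted p = 0.127), and 5 of 6 aged CR rats lay above every young rat. For ATP8 the difference in share was -0.0378 percentage points (two-sided exact permutation p = 0.0281, adjusted p = 0.157), and 3 of 6 aged CR rats lay below every young rat. For CYTB the difference was -1.12 percentage points (two-sided exact permutation p = 0.0584, adjusted p = 0.207). No member had groups without overlap in any comparison, where 7.69% of the 13 genes, namely ND4, did so between aged CR and young rats.

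**Figure D4:**
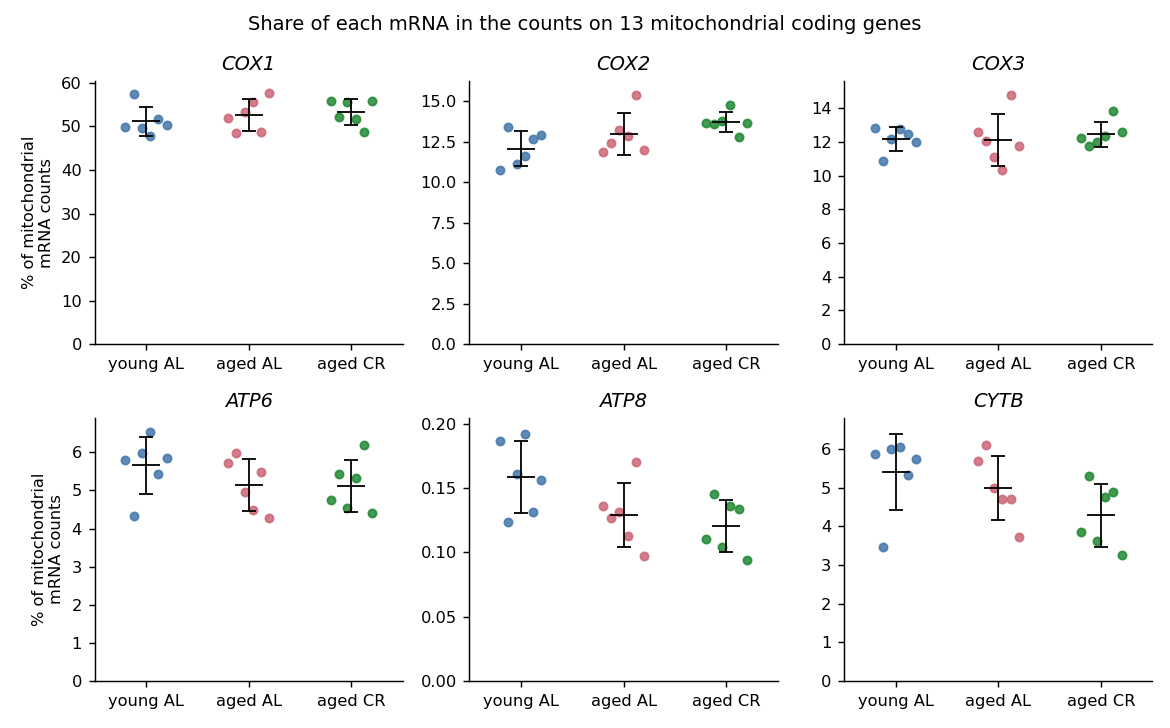
Share of each of the 6 mRNAs in the counts on the 13 mitochondrial coding genes (percent, linear axes from 0). Each point is 1 library, and black marks give the mean with its SD (n = 6 in each group). The COX2 means run from 12.1% in young to 13.7% in aged CR rats and the CYTB means from 5.41 to 4.29%, with overlap of the groups in every panel.

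Ratios between members set aside both the scaling and the common rise and fall. Per base, the CYTB to COX1 ratio had a median of 0.157 in young rats (range 0.0815 to 0.171), 0.129 in aged rats fed AL (range 0.0872 to 0.171) and 0.109 in aged CR rats (range 0.0788 to 0.138). The ATP6 to COX1 ratio had medians of 0.264, 0.230 and 0.213 in the same order, while COX2 to COX1 had 0.538, 0.540 and 0.575. Groups overlapped in each of these ratios, which are given without a test. Within ATP synthase, the ATP8 to ATP6 ratio had medians of 0.0925, 0.0816 and 0.0773 in the same order and lay between 0.0708 and 0.108 in all 18 libraries. Its highest value was 1.52 times its lowest, where the CYTB to ATP6 ratio varied 1.42-fold and the CYTB to COX1 ratio 2.17-fold. ATP8 and ATP6 overlap on the same strand, so their ratio compares the fragments assigned to each row. It cannot be read as a ratio of separate mRNAs.

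Mitochondrial rRNA did not follow the mRNAs. The 12S and 16S rows took a median of 0.876% of all counts in young rats, 0.824% in aged rats fed AL and 4.91% in aged CR rats. Between the aged groups both were called higher in aged CR rats, 12S with a log2 fold change of 4.70 (adjusted p = 0.0219, edgeR) and 16S with 2.61 (adjusted p = 0.0262), where 1.38% of all genes were called and none of the 6 mRNAs. Against young rats neither was called in edgeR, 12S with 2.69 (adjusted p = 0.122) and 16S with 1.72 (adjusted p = 0.102). DESeq2 with all libraries called both higher. The aged CR group was split, with 3 libraries between 0.906 and 1.93% and 3 between 7.89 and 10.3%. What depletion left behind and what the muscle held cannot be told apart in these rows. The 5 libraries with over 2.5% on rRNA were also left out, a choice made after the data were seen. The difference between aged CR and young rats was then -1.58 for CYTB (adjusted p = 0.0779, edgeR), -1.54 for ATP8 (adjusted p = 0.157) and -0.73 for COX1 (adjusted p = 0.408), and no member was called. With the log2 rRNA percentage as a covariate it was -1.01 for CYTB (adjusted p = 0.341), -1.12 for ATP8 (adjusted p = 0.310) and -0.43 for COX1 (adjusted p = 0.618).

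**Figure D5:**
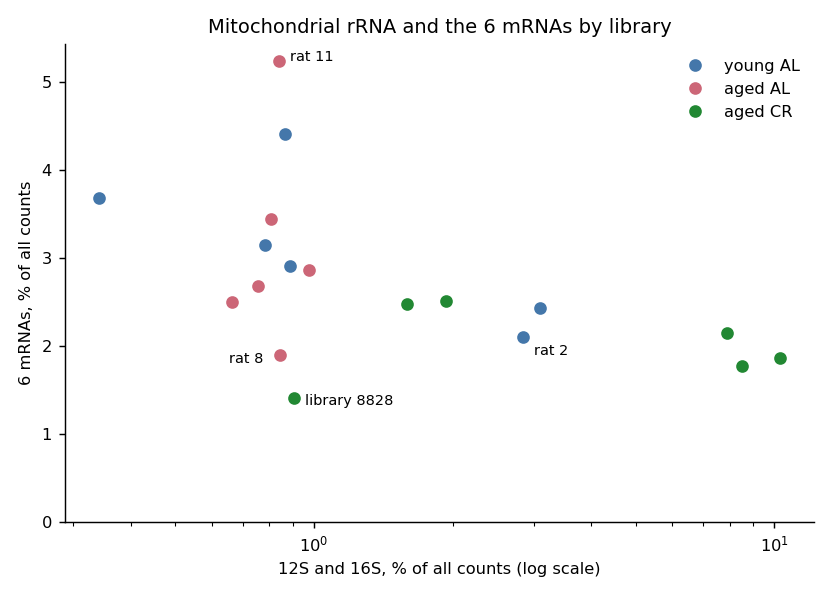
Percent of all counts on the 6 mRNAs (linear axis) against the percent on 12S and 16S rRNA (log axis), with 1 point for each of the 18 libraries. Libraries with over 2.5% on rRNA are 2 young and 3 aged CR rats, and the highest mRNA percentage, 5.24%, belongs to an aged rat fed AL with a low rRNA percentage.

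Outside mitochondrial DNA, the genes whose log2 CPM followed the sum of the 6 members most closely over the 18 libraries were ENSRNOG00000016511 (chromosome 17, 68477446 to 68509120, Rnor_6.0) and ENSRNOG00000003542 (chromosome 10, 12994683 to 12995457). Pearson's r was 0.92 for the first and 0.90 for the second, and Spearman's rho 0.91 and 0.75. These genes were picked for the highest r among 14619 genes tested outside mitochondrial DNA, and they share the scaling of the sum. Among the mitochondrial coding genes of complex I, r with the same sum ran from 0.78 (ND4L) to 0.95 (ND1).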

How the data were processed

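Gastrocnemius RNA of 18 rats was sequenced after Ribo-Zero Plus depletion and directional library preparation. The authors trimmed reads with Cutadapt 1.2.1 and Sickle, aligned them to Rnor_6.0 with STAR 2.3.0e and counted fragments with featureCounts 1.6.4 on Ensembl release 96. The deposited values are these counts, with no normalization. All columns of per-sample values were used.

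In edgeR 4.0.16 (R 4.3.3), genes were kept by filterByExpr, scaled with TMM factors and tested with the quasi-likelihood test over all 18 libraries, with Benjamini-Hochberg adjustment over 14646 genes. Standard errors were derived from each log2 fold change and its F statistic, and 95% intervals use the t quantile of the fit. A call needed a 1.5-fold change and an adjusted p no higher than 0.05. Shares were compared by two-sided exact permutation tests (scipy 1.17.1), with Wilson 95% intervals. Alternatives included DESeq2 1.42.0, other scalings and filters, and leaving out each library. The fits were tested on simulated data.

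Members, lists and tests were chosen with earlier results of these data known. The named genes were to be all 6 members, the other mitochondrial genes and the genes most like the members' sum. The table has no symbols, so nuclear subunits and tissue markers were not analysed here, and the tissue label could not be checked against markers. No mitochondrial sequence is printed. The study lists 6 rats in each group, and the libraries were treated as separate animals. The column name of library 8826 carries the same sample number as that of rat 15.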

Additional observations from a re-analysis of the deposited data

Results flagged for a closer look

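In 4 of 42 groups of 6 libraries examined, 1 library lay far from the others by Dixon's ratio of the gap to the range. Chance gives about 2.1 for normally distributed values. The members rise and fall together, so the flags are not separate observations, and an excess over chance was not tested. COX2 in rat 11 (aged, AL) had 8791 CPM, against 1939 to 4150 in the rest of its group (ratio 0.677). ATP8 in the same rat had 97.4 CPM, against 19.8 to 47.0 (ratio 0.650). COX2 in library 8828 (aged, CR) had 1926 CPM, against 3209 to 3799 (ratio 0.685). The CYTB share of mitochondrial mRNA counts in young rat 2 was 3.47%, against 5.32 to 6.04% in the other young rats (ratio 0.719).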

How the results depend on the processing

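Between aged CR and young rats, the number of members called was 0 with edgeR on all libraries, 2 with DESeq2 on all libraries, 3 with DESeq2 on the 12 libraries compared and 1 with edgeR on those 12 (ATP8). It was 0 to 1 with 1 library left out, with CYTB called without rat 2 and ATP8 without rat 8. The cause was not tested. For levels in the other comparisons the count was 0 under each of the 32 alternatives run. For shares it was 0 under each of 24, which says little about stability, since a single gene at the smallest exact permutation p of 0.00216 has an adjusted p of 0.0844 over 39 tests.

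Direction changed for values close to 0. Between the groups fed AL, the COX1 log2 fold change was 0.0127 with library totals as the scaling, 0.0352 without rat 8 and library 8828, and -0.30 to 0.0344 with 1 library left out. That of COX2 was 0.0303 with upper-quartile scaling, 0.00027 without a filter, 0.11 with library totals, 0.13 without rat 8 and library 8828, and -0.34 to 0.13 with 1 library left out. Scaling by library totals moved the median of all genes to 0.18 in this comparison and to -0.19 between the aged groups. The COX3 share difference between the groups fed AL was 0.622 percentage points with the 12 genes other than COX1 as the whole, and -0.593 to 0.294 with 1 library left out. Between aged CR and young rats it was -0.0572 without the 5 libraries high in rRNA. Between the aged groups, the COX1 share difference was -0.623 without rat 8 and library 8828 and -0.107 to 1.74 with 1 library left out. That of ATP6 was 0.269 without rat 8 and library 8828, 0.0775 with the 12 genes as the whole and -0.261 to 0.126 with 1 library left out, and that of COX3 -0.000122 to 0.887 with 1 library left out.

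The settings without rat 8 and library 8828, without the 5 libraries, with the rRNA covariate, with library totals and with 12 genes as the whole were added after the data were seen. No paired analysis was possible because the groups share no replicate numbers. The median standard error of the log2 fold changes was 0.31 for the members between aged CR and young rats, against 0.19 over all genes.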
